A study of Mus musculus with 89 samples.

Results

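The lungs examined here came from female BALB/c mice that had been given copper oxide nanomaterial with a polyethylene glycol coating (CuO PEG) into the airways at 10 μg a day, and they were compared with the lungs of mice that received phosphate-buffered saline (PBS) alone. The samples were taken from the labels, which put 4 samples in the CuO PEG 10 group and 7 in the PBS control group, 11 of the 89 samples of the series. All mice, the controls included, had been sensitized to ovalbumin (OVA) with Alum by injection into the abdomen. The mice of both groups were then challenged with PBS, with or without the nanomaterial, by aspiration from the back of the throat on 4 consecutive days, so that neither group met the allergen in the airways. The other groups of the series received another coating or no coating, another dose, or an OVA challenge. By the study's methods the lungs were lavaged with PBS before the tissue was taken, 24 h after the last exposure. Each sample was a pool of the RNA of 2 mice hybridized in one colour of a two-colour expression array. In all values below n counts pools.

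Inhaled metal oxide particles are taken up mainly by the resident macrophages of the airspaces, and copper oxide can dissolve inside them and release copper ions. Exposed lung cells are known to answer with chemokines that draw in monocytes and neutrophils, with secreted acute phase proteins such as the serum amyloid A family, and with chaperones that refold damaged proteins. Metallothioneins bind excess copper, and the transcription factor Nrf2 drives antioxidant genes. Repair of the lung and local renewal of macrophages bring cells into division, which is marked by a shared set of mitotic transcripts.

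Relative to PBS controls, CuO PEG 10 lungs had 98 differentially expressed genes (DEGs), with 91 higher and 7 lower. Among the largest rises were serum amyloid A, the iron-binding protein lipocalin 2, chemokines, the chaperone Hspa1a and the macrophage product Retnla, while mitotic genes rose in number and each by less than 2-fold. The largest rise was that of Saa3, at 2.77 on the log2 scale (SE 0.425, n = 4 and 7), and the largest fall was that of Cirbp, which encodes a cold-inducible RNA-binding protein, at -0.97 (SE 0.166). A gene was called a DEG at a Benjamini-Hochberg adjusted p under 0.05 in limma and an absolute log2 fold change over 0.58, which is a fold of 1.5. Of the 22911 genes tested, 0.428% were DEGs, 0.397% higher and 0.0306% lower. At an unadjusted p under 0.05 there were 2351 genes, or 10.3%. The median log2 fold change over all genes was 0.00, the median of the 91 higher DEGs was 0.77 and that of the 7 lower DEGs was -0.74, and 21 of the higher DEGs passed a fold of 2. The 4 CuO PEG 10 samples all lay above the 7 controls in 65 of the 91 higher DEGs, where 2.97% of genes did so in the whole table. They all lay below them in 7 of the 7 lower DEGs, where 2.63% of genes did so. The DEGs were chosen on these same samples, so high shares were built in and nothing is read from them. Statements on overlap of single DEGs below are descriptions in the same sense.

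**Figure D1:**
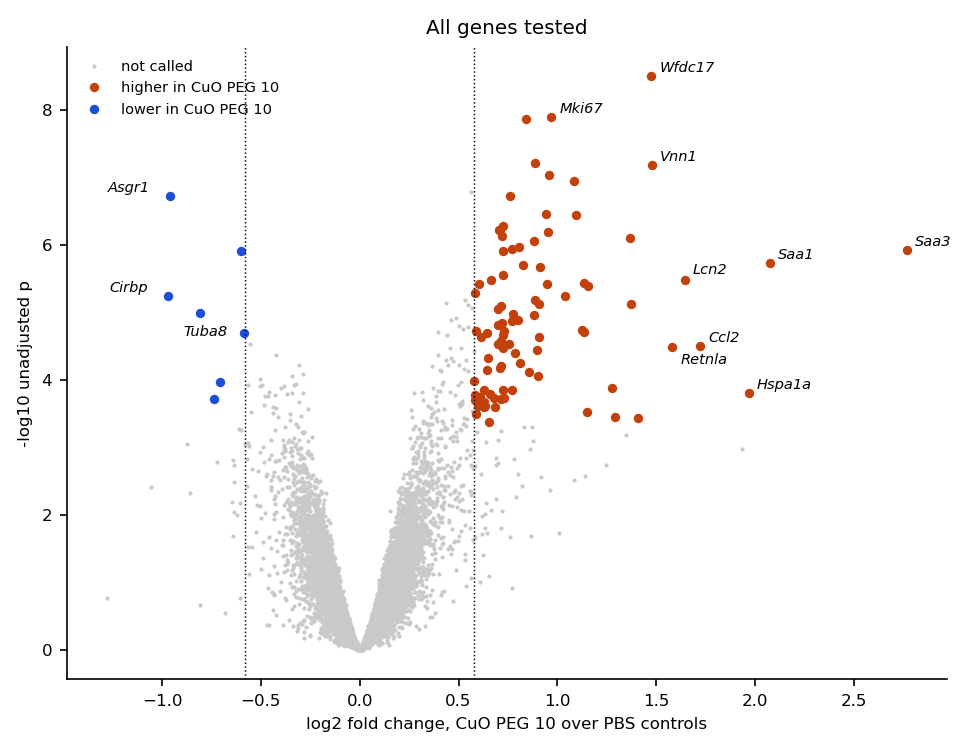
Each point is one of the genes tested, with the log2 fold change of CuO PEG 10 over PBS controls on the horizontal axis and the negative log10 of the unadjusted limma p on the vertical axis. Dotted lines mark the log2 fold change of 0.58 in either direction, and the 91 higher DEGs on the right outnumber the 7 lower DEGs on the left.

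The arrays bore on all of these values. The 11 samples lay on 8 arrays of 6 slides, and 3 arrays held a sample of both groups: replicate 1 shared an array with PBS replicate 4, replicate 2 with PBS replicate 6 and replicate 3 with PBS replicate 7. Replicate 4 shared its array with a sample of another coating, and replicate 3 was the only one of the 4 labelled with Cy3. Over the 3 shared arrays, 88 of the 91 higher DEGs were higher in the CuO PEG 10 sample each time, against 14.2% of all genes, and the 7 lower DEGs were all lower each time, against 12.9%. The fit takes the array as a term and so rests largely on these same differences, and nothing is read from these shares. Without CuO PEG 10 replicate 3, or without PBS replicate 7 on the same array, 31 DEGs were left. Median foreground intensity was 62.5 to 175.5 in the 11 samples, 51.1 to 68.4% of spots were well above background and none was saturated, while 89 of the 98 DEGs were well above background in all 11 samples. The lung markers fitted the labelled tissue, since the 11 measured markers of alveolar type 2 cells and the 11 of club cells were above background in each of the 11 samples. In whole lung, more cells of a type and more RNA per cell cannot be told apart.

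Promoters are shown first for 3 of the groups of genes whose members rose, the acute phase, chaperone and mitotic genes. The RefSeq annotation of the GRCm38.p6 build, made from the C57BL/6J reference and not from BALB/c, gave the 250 bases before the transcription start for 75 of the 91 higher DEGs, and 9 short motif spellings were searched in them on both strands. The matches are descriptions of letters, and the promoters printed were chosen after the matches and the fold changes had been seen. For the acute phase genes Saa3, at chr7:46715677-46715926 on the minus strand, Saa1, at chr7:46742981-46743230 on the minus strand, and Lcn2, at chr2:32387740-32387989 on the minus strand, capitals mark the match to TTGCNNAA, the spelling of the C/EBP site. Each line is the 250 bases before the start of the gene, read 5′ to 3′ on its own strand.
Saa3: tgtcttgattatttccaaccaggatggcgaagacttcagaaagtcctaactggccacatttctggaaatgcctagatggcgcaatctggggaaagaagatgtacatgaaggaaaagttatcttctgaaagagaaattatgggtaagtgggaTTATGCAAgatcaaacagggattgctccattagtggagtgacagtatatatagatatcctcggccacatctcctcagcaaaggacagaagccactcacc
Saa1: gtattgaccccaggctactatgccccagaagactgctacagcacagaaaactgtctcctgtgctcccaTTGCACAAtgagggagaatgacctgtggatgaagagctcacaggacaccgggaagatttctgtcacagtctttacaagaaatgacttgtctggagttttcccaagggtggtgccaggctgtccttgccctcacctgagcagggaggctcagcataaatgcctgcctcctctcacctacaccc
Lcn2: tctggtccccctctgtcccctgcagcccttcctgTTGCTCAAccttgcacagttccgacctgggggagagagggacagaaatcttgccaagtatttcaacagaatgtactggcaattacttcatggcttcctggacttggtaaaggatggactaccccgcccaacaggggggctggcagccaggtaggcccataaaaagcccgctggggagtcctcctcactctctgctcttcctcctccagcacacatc
The match began 99 bases before the start in Saa3, 182 bases before it in Saa1 and 216 bases before it in Lcn2. This motif was in 10 of the 14 acute phase promoters in the table, or 71.4%, in 15 of the 75 promoters of higher DEGs, or 20.0%, and in 10.8% of the promoters of all 27025 genes.

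For the chaperone gene Hspa1a, at chr17:34972157-34972406 on the minus strand, capitals mark a match to GAANNTTC, a pair of inverted units of the heat shock element. Top2a, at chr11:99024190-99024439 on the minus strand, and Mki67, at chr7:135716380-135716629 on the minus strand, stand for the mitotic genes, and capitals mark TTTGAA, the core of the cell cycle homology region.
Hspa1a: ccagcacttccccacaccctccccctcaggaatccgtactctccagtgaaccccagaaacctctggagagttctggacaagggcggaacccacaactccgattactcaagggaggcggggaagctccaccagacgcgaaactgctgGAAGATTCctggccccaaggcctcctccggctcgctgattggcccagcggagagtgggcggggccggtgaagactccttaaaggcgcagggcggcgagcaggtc
Top2a: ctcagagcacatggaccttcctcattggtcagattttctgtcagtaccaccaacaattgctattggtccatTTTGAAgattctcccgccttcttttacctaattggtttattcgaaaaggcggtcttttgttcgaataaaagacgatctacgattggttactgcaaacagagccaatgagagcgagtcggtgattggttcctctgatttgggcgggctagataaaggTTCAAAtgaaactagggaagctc
Mki67: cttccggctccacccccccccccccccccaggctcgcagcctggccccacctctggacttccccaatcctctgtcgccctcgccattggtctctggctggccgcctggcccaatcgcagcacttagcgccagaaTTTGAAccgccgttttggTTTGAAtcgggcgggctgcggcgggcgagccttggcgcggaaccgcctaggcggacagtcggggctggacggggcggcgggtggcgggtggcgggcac
GAANNTTC began 104 bases before the start of Hspa1a and was in 6 of 12 chaperone promoters, or 50.0%, against 8 of the 75 promoters of higher DEGs, or 10.7%, and 7.73% of all promoters. Of those 6 chaperones only Hspa1a was called, and the heat shock element with 3 units was in the promoter of no higher DEG. TTTGAA began 179 and 23 bases before the start of Top2a and 116 and 98 bases before that of Mki67, and the first match in Top2a overlapped a match to GAANNTTC. It was in 8 of 19 mitotic promoters, or 42.1%, in 26 of the 75 promoters of higher DEGs, or 34.7%, and in 18.3% of all promoters. TTTGAA was also in 3 of 6 promoters of the monocyte and macrophage chemokine list, or 50%, and in 1 of 14 acute phase promoters. The CCAAT box was in 17 of 19 mitotic promoters, or 89.5%, against 37.5% of all. It was also in 6 of the 7 promoters of lower DEGs, or 85.7%, and in 42 of the 75 of higher DEGs, or 56%. Neither motif was thus particular to the mitotic genes. The κB motif was in the promoters of 2 of the 75 higher DEGs, the neutrophil chemokine Cxcl1 and the mitotic gene Birc5, and in 1.36% of all promoters.

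Secreted acute phase proteins gave the largest rises. Of 19 measured acute phase genes, 6 were called higher and none lower, with a median log2 fold change of 0.57, and 16 lay above 0. For this list and each list below against PBS, the share over all genes was 0.397% called higher and 0.0306% called lower. Saa3, the serum amyloid A that macrophages and epithelium make, had levels of 14.03, 13.94, 13.88 and 12.91 in CuO PEG 10 replicates 1 to 4, where a level is the log2 intensity after removal of dye, slide and array position. Its 7 controls ran from 10.01 through a median of 11.26 to 12.40. The batch terms were removed with the groups in the fit, so the levels keep the fitted group differences. All 4 exposed samples lay above all controls, the log2 fold change of 2.77 had a limma adjusted p of 0.00117, and the differences on the 3 shared arrays were 1.69, 3.99 and 3.65. Saa1, a serum amyloid A of the circulation, was at 11.43, 11.14, 11.34 and 10.77 against controls from 8.71 through 9.05 to 9.94, and so did not overlap them. Its log2 fold change was 2.08 (SE 0.328, adjusted p = 0.00169). Lcn2, which withholds iron from bacteria, was at 14.18, 14.21, 14.12 and 13.58 against controls from 11.90 through 12.45 to 13.00, again without overlap, with a log2 fold change of 1.64 (SE 0.27, adjusted p = 0.00251). Saa2 rose by 1.29 (adjusted p = 0.0446), but its transcript is nearly that of Saa1 and the probes may not separate them. C3, the central complement component, rose by 0.68 and the metalloreductase Steap4 by 0.77. The orosomucoids Orm1 and Orm2, plasma proteins that bind small molecules, had log2 fold changes of 1.24 (SE 0.352, adjusted p = 0.114) and 1.14 (SE 0.338, adjusted p = 0.134) and were not called. Without CuO PEG 10 replicate 3 or PBS replicate 7, Saa3 had a log2 fold change of 2.34 (adjusted p = 0.067) and Saa1 of 1.82 (adjusted p = 0.0743), while Lcn2 kept its call under all 22 alternatives that were run for it, and Saa2 and C3 lost theirs under 12 and 8 of 22. When the array was a random block 11 acute phase genes were called, and 9 were on the 3 shared arrays alone. The acute phase count fell to 3 on only the slides that hold CuO PEG 10 or with only the 2 groups, to 1 without CuO PEG 10 replicate 3 or PBS replicate 7, and to 3 without CuO PEG 10 replicate 1 or PBS replicate 4.

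**Figure D2:**
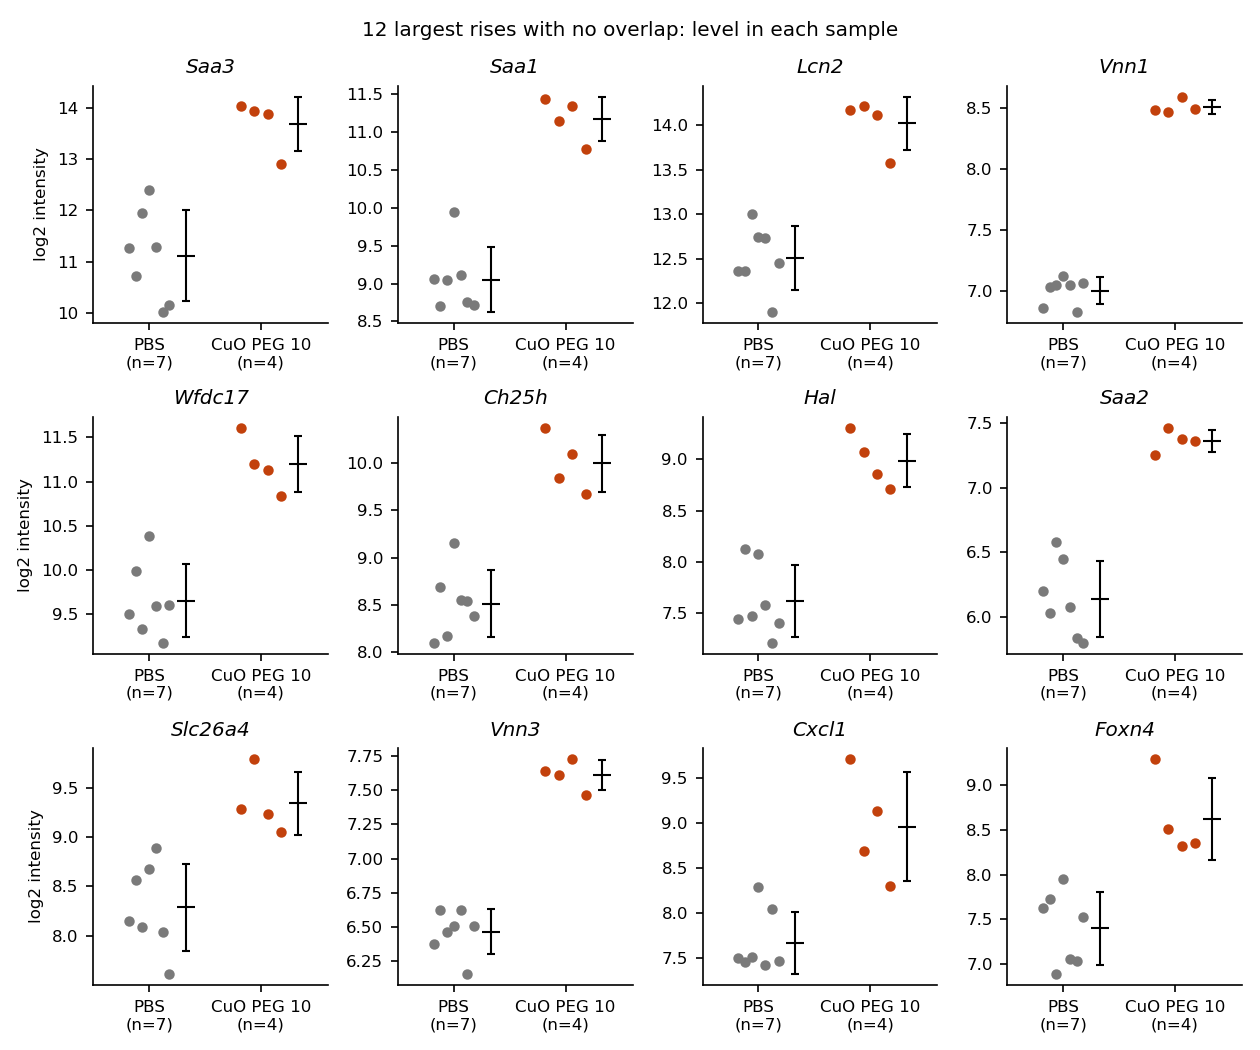
Each panel plots one of the 12 genes with the largest rises among DEGs whose groups did not overlap, with the log2 level of each sample after removal of dye, slide and position on the vertical axis. Points are the 7 PBS controls and the 4 CuO PEG 10 samples, the black marks are group means with SD, and the exposed samples of Saa3 lie between 12.91 and 14.03 against controls between 10.01 and 12.40.

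The list of chemokines for monocytes and macrophages, which also holds the receptor Ccr2, had 4 of 9 members called higher and none lower. Its median was 0.77 and 9 of 9 lay above 0. Ccl2, the main ligand of the monocyte receptor Ccr2, was at 10.81, 10.22, 10.87 and 9.41 against controls from 7.98 through 8.88 to 9.79. Replicate 4 lay within the control range, so the groups overlapped, and the log2 fold change was 1.72 (SE 0.334, adjusted p = 0.00967). Ccl7, a second Ccr2 ligand, was at 8.53, 8.02, 8.52 and 7.44 against controls from 6.32 through 6.47 to 7.66, with overlap at replicate 4 and a log2 fold change of 1.41 (SE 0.337, adjusted p = 0.0451). Ccl9, a macrophage chemokine, was at 11.24, 11.02, 10.92 and 11.03 against controls from 9.58 through 9.68 to 10.49. These values did not overlap, and Ccl9 rose by 1.10 (SE 0.156, adjusted p = 0.000665). Its neighbour Ccl6 was at 14.93, 14.92, 14.77 and 14.84 against controls from 13.71 through 14.01 to 14.27, also without overlap, with a log2 fold change of 0.77 (SE 0.139, adjusted p = 0.0056). Ccl8 had a value of 1.01 (adjusted p = 0.331), Ccl12 of 0.72 (adjusted p = 0.24) and Ccl3 of 0.62 (adjusted p = 0.337), and none of them was called. Without CuO PEG 10 replicate 3 or PBS replicate 7, Ccl2 had a value of 1.24 (adjusted p = 0.301) and Ccl6 of 0.75 (adjusted p = 0.0971), and without CuO PEG 10 replicate 2 or PBS replicate 6 Ccl2 had one of 1.52 (adjusted p = 0.0863). Ccl7 lost its call when any one of 10 of the 11 samples was left out, and the chemokine count was 7 on the 3 shared arrays alone, 1 without CuO PEG 10 replicate 3 or PBS replicate 7 and 2 without CuO PEG 10 replicate 2 or PBS replicate 6.

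Among chemokines and cytokines of other kinds, single genes rose. Of 6 ligands of the neutrophil receptor Cxcr2 and neutrophil growth factors, Cxcl1 alone was called, at 9.72, 8.70, 9.14 and 8.31 against controls from 7.42 through 7.50 to 8.29. Replicate 4 was just above the highest control, and the log2 fold change was 1.15 (SE 0.27, adjusted p = 0.039). Cxcl5, which lung epithelium secretes, had a log2 fold change of 1.35 (SE 0.343) and an adjusted p of 0.0647. Of 10 eotaxins and Th2 chemokines and cytokines, Ccl17, which attracts Ccr4-bearing T cells, was the only one called. Its levels of 9.46, 9.97, 9.98 and 9.65 lay above controls from 8.28 through 8.52 to 9.35, and it rose by 1.13 (SE 0.212, adjusted p = 0.00699). The eotaxin Ccl11 had a log2 fold change of 0.03 with a 95% interval from -0.34 to 0.39, and its sign turned under other batch terms. The alarmin Il33 had a value of 0.23 with an interval from -0.07 to 0.52. Il13, the Th2 cytokine that drives mucus, was not well above background in any of the 4 exposed samples and was so in 1 of the 7 controls. Of 20 pro-inflammatory cytokines and NF-κB feedback genes, only Csf2, the growth factor of alveolar macrophages, was called, at 7.86, 7.76, 7.87 and 7.76 against controls from 6.94 through 7.12 to 7.34. The samples did not overlap, and Csf2 rose by 0.72 (SE 0.136, adjusted p = 0.00726). Tnf had a value of 0.31 with an interval from -0.06 to 0.69, and of 10 interferon-inducible genes none was called. Leaving out CuO PEG 10 replicate 3 gave values of 0.90 for Cxcl1 (adjusted p = 0.439), 0.98 for Ccl17 (adjusted p = 0.177) and 0.69 for Csf2 (adjusted p = 0.14), and without replicate 1 Cxcl1 had a value of 1.05 (adjusted p = 0.234).

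Chaperones rose in 5 of 15 measured members, none fell, the median was 0.57 and 14 of 15 lay above 0. Hspa1a, the inducible Hsp70, was at 11.12, 12.09, 12.65 and 12.18 against controls from 9.24 through 9.66 to 11.21. Replicate 1 lay below the highest control, PBS replicate 4, and on the array that those samples share Hspa1a differed by -0.12, while it differed by 2.41 and 3.44 on the other shared arrays. Its log2 fold change was 1.97 (SE 0.435, adjusted p = 0.0265). Hspa1b, a near-identical copy whose signal cannot be parted from that of Hspa1a, had a value of 1.94 (SE 0.517, adjusted p = 0.0836). Hsph1, an exchange factor of Hsp70, was at 9.13, 9.35, 9.79 and 9.52 against controls from 8.00 through 8.28 to 8.46, and Hspa8, the constitutive Hsp70, was at 13.94, 13.75, 14.00 and 14.03 against controls from 12.74 through 13.04 to 13.22. Neither overlapped its controls, and the rises were 1.12 (SE 0.209, adjusted p = 0.00687) and 0.91 (SE 0.172, adjusted p = 0.00766). Single probes of Hsph1 differed in size, with values of 1.69, 1.44 and 0.24, the last at an adjusted p of 0.686. The endoplasmic reticulum chaperone Hspa5 rose by 0.66 (SE 0.109) and Chordc1, a partner of Hsp90, by 0.59 (SE 0.139). Chordc1 lost its call under 11 of 22 alternatives, and its probes had values of 0.71 and 0.47, the second at an adjusted p of 0.204. The 3 chaperones first in order among those not called include Hsp90aa1, with a value of 0.70 (SE 0.18, adjusted p = 0.0701), and Dnajb1, with 0.50 (SE 0.207, adjusted p = 0.371). Hspa1a had a value of 2.80 (adjusted p = 0.00183) without CuO PEG 10 replicate 1, of 1.79 (adjusted p = 0.14) without replicate 2, of 1.30 (adjusted p = 0.482) without replicate 3 and of 1.91 (adjusted p = 0.0727) without replicate 4. Without CuO PEG 10 replicate 3 or PBS replicate 7 none of the 15 was called and their median was 0.42. Without CuO PEG 10 replicate 4, 3 were called. A random array block, in the whole fit or in that of only the 2 groups, gave 10 calls, and the 3 shared arrays alone gave 8.

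Mitotic genes held the largest share of called members, with 15 of 24 higher, none lower, a median of 0.66 and 23 above 0. Mki67, the nuclear protein of cycling cells, was at 10.26, 9.74, 10.20 and 9.62 in the exposed lungs and ran from 8.67 through 8.90 to 9.56 in the controls. Replicate 4 was closest to the controls, none overlapped, and the rise was 0.97 (SE 0.113, adjusted p = 0.000102). Top2a, which untangles DNA before division, was at 8.79, 8.03, 8.32 and 7.99 against controls from 7.18 through 7.35 to 7.81, with a rise of 0.89 (SE 0.113, adjusted p = 0.000296) and shared-array differences of 0.97, 0.83 and 1.02. Ccna2, a cyclin of S phase and mitosis, rose by 0.91 (SE 0.145) and Birc5, a subunit of the chromosomal passenger complex, by 0.88 (SE 0.133). The kinase of that complex, Aurkb, had a log2 fold change of 0.46 (SE 0.0835, adjusted p = 0.0056), which was under the fold set for a call. Ccnb1 and Bub1 had values of 0.43 (adjusted p = 0.14) and 0.36 (adjusted p = 0.285). Exposed replicate 1 was the highest of the 4, and PBS replicate 4 the highest of the 7, in many mitotic genes. Over the 91 higher DEGs, PBS replicate 4 was the highest control in 63, CuO PEG 10 replicate 1 was the highest exposed sample in 64 and replicate 4 the lowest in 55. CuO PEG 10 replicate 1 and PBS replicate 4 share an array, and the part of the array in this order was not tested. Mki67 and Top2a kept their calls when any one of the 11 samples was left out, with values of 0.81 (adjusted p = 0.0118) and 0.84 (adjusted p = 0.0157) without CuO PEG 10 replicate 3. The mitotic count was 9 without either of that pair and 6 without CuO PEG 10 replicate 3 or PBS replicate 7. It was also 6 with only the 2 groups in the fit, and 13 to 16 under the other alternatives to normalization, filter and batch terms, except for the replicate block.

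**Figure D3:**
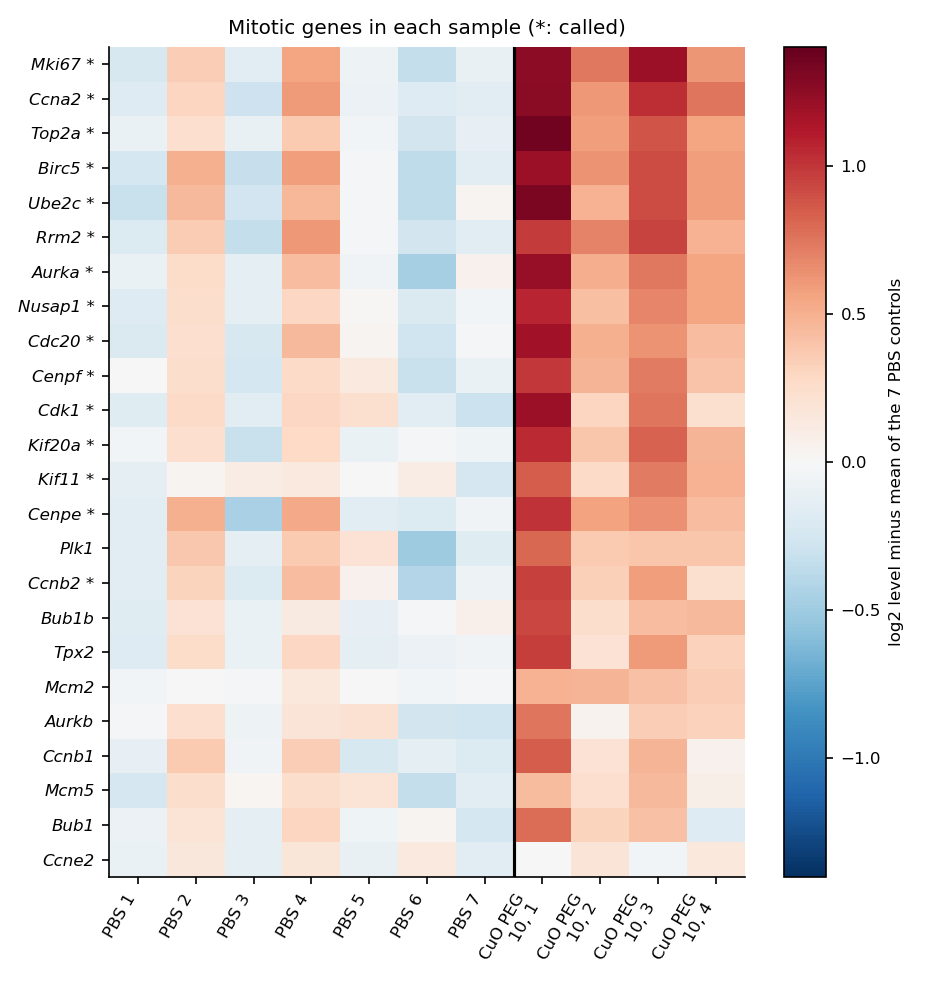
Rows are the mitotic genes and columns the 7 PBS controls and 4 CuO PEG 10 samples, with colour for the log2 level minus the mean of the controls, and asterisks mark the 15 called genes. The 4 exposed columns are mostly red, the first of them the darkest, and PBS replicate 4 is the reddest of the controls.

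Genes of macrophages, of secreted lung defence and of other kinds accounted for further rises. Wfdc17, a secreted protein of activated macrophages, was at 11.61, 11.19, 11.13 and 10.84 against controls from 9.16 through 9.59 to 10.39, and its rise of 1.47 had the smallest adjusted p among the genes described here (SE 0.159, adjusted p = 7e-05). Vnn1, a pantetheinase that makes cysteamine, was at 8.49, 8.47, 8.59 and 8.49 against controls from 6.82 through 7.04 to 7.12. The exposed samples stood more than 1 log2 unit above the highest control, and the rise was 1.48 (SE 0.189, adjusted p = 0.000296). Its paralog Vnn3 rose by 1.16. Ch25h, the enzyme that makes 25-hydroxycholesterol, and Hal, which breaks down histidine, both rose by 1.37 (SE 0.239 and 0.205). Slc26a4, the anion exchanger pendrin of airway epithelium, rose by 1.28 (SE 0.278) and the transcription factor Foxn4 by 1.14 (SE 0.188). Sftpd, the surfactant protein D that binds microbes, was at 16.74, 16.47, 16.47 and 16.21 against controls from 15.77 through 15.88 to 15.92, with no overlap. It rose by 0.71 (SE 0.104, adjusted p = 0.000913) and was the one alveolar type 2 marker of 11 that was called, since Sftpa1 had a value of 0.33 (adjusted p = 0.263), Sftpb of -0.17 (adjusted p = 0.676) and Sftpc of 0.22 (adjusted p = 0.758). Wfdc17, Vnn1, Hal, Foxn4 and Sftpd kept their calls under all 22 alternatives that were run for them. Ch25h had a value of 1.22 (adjusted p = 0.118), Vnn3 of 1.14 (adjusted p = 0.058) and Slc26a4 of 1.12 (adjusted p = 0.311) without CuO PEG 10 replicate 3. Some further DEGs were chosen after their values had been seen. Retnla, a secreted protein of alternatively activated macrophages and airway epithelium, was at 15.52, 15.45, 15.20 and 14.46 against controls from 13.21 through 13.55 to 14.49, with overlap at replicate 4, and rose by 1.58 (SE 0.308, adjusted p = 0.00972). Noxo1 and Noxa1, the organizer and activator of the NADPH oxidase Nox1, rose by 0.90 (SE 0.176, adjusted p = 0.0103) and 0.86 (SE 0.178, adjusted p = 0.0172). Noxo1 and Noxa1 had values of 0.90 (adjusted p = 0.0624) and 0.69 (adjusted p = 0.21) without CuO PEG 10 replicate 1, and without replicate 3 Retnla had one of 1.47 (adjusted p = 0.176).

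Markers of the cells that the lavaged lung could hold gave few calls. Cells removed by the lavage were not measured here, so these lists do not describe the cells of the airspaces. Of 21 markers of monocytes and recruited macrophages, 3 were called higher: Spp1, or osteopontin, by 1.04 (SE 0.177), the lipid receptor Trem2 by 0.91 (SE 0.158) and the endotoxin coreceptor Cd14 by 0.79 (SE 0.155). The median of that list was 0.18 and its summed level was 16.65 to 16.83 in the exposed samples against 16.52 to 16.82 in the controls, while the monocyte marker Ly6c2 had a value of -0.04 (adjusted p = 0.964). In 7 of the 21 the exposed samples all lay above the controls, as they did in 2.97% of all genes. The count called was 6 with dye, slide and position, 7 when the array was a random block or on the 3 shared arrays alone, and 1 with only the 2 groups. Of 20 neutrophil markers only Clec4d, a lectin that macrophages also carry, was called, at 0.65 (SE 0.158, adjusted p = 0.049). The median was 0.07, the summed level of 16.09 to 16.44 overlapped the 16.16 to 16.54 of the controls, and S100a8 and S100a9, the abundant calprotectin subunits, had values of -0.30 (interval -1.02 to 0.42) and -0.29 (interval -0.999 to 0.42). Of 17 alveolar macrophage markers only the protease Ctsk was called, at 0.94 (SE 0.134), and the median was -0.17, with Ear1, Ear2 and Ear10 at -0.52, -0.62 and -0.64 and adjusted p-values of 0.33, 0.252 and 0.103. In 3 of the 17 the exposed samples all lay below the controls, as they did in 2.63% of all genes. In 2 of the 17 they all lay above them, as they did in 2.97% of all genes. On the 3 shared arrays alone 3 were called lower. No marker of eosinophils, club, ciliated or alveolar type 1 cells, endothelium, fibroblasts, T cells, B cells, natural killer cells, dendritic cells, mast cells, platelets, red cells or muscle was called in either direction by limma. The largest median shift among those lists was -0.31, in the 9 red cell genes, whose summed level was 18.22 to 18.68 in the exposed samples and 18.58 to 19.18 in the controls, and the 10 B cell and plasma cell genes were at 11.78 to 12.49 against 12.31 to 13.27. Muscle genes, which come with pieces of heart or great vessel, had a summed level of 12.37 to 14.22 in the exposed samples and of 12.81 to 15.10 in the controls, with a median of -0.12, and their part in the results was not tested.

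**Figure D4:**
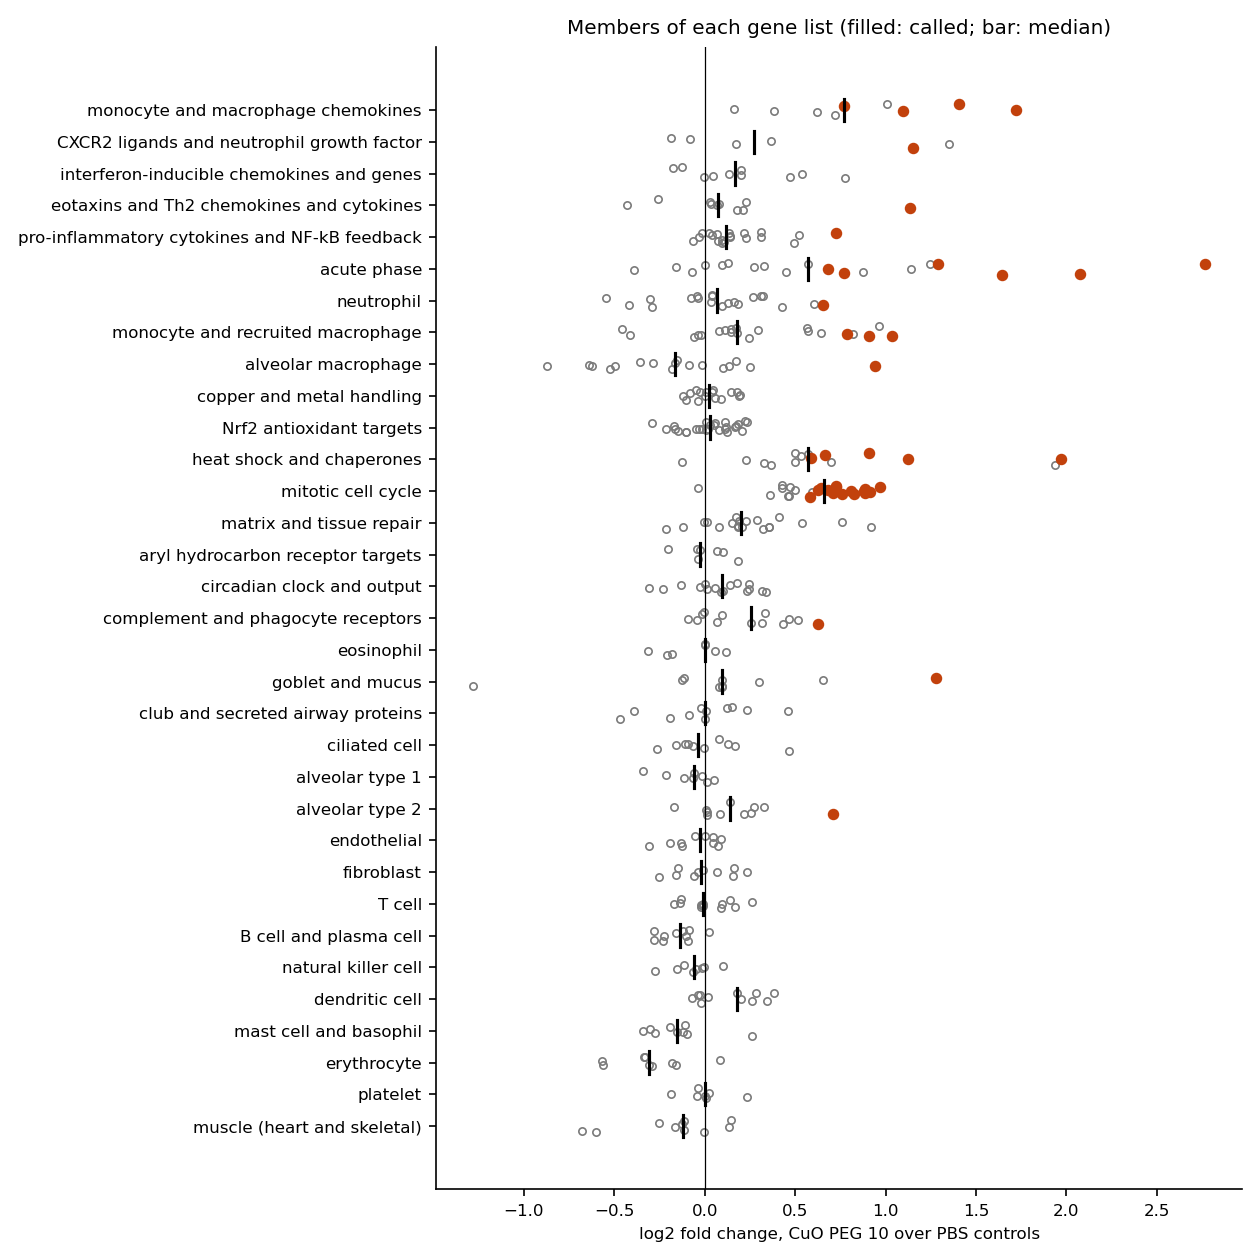
Each row is a gene list and each point a measured member at its log2 fold change of CuO PEG 10 over PBS controls, filled where it was called, with a bar at the median. Mitotic genes, with a median of 0.66 and 15 called, and monocyte and macrophage chemokines, with 0.77 and 4 called, stand to the right of the copper and Nrf2 lists, with 0.02 and 0.03 and none called.

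The lists for copper handling and for the answer to oxidants held no called gene. None of 16 copper and metal handling genes passed, with a median of 0.02, and the metallothioneins Mt1 and Mt2 had log2 fold changes of 0.05 (interval -0.16 to 0.25) and 0.18 (adjusted p = 0.813). None of 27 Nrf2 targets passed either, with a median of 0.03. Hmox1, which degrades haem, had a value of 0.17 (interval -0.18 to 0.51), Nqo1, a quinone reductase, of -0.10 (interval -0.35 to 0.15) and Gclc, of glutathione synthesis, of 0.23 (interval 0.01 to 0.46), with an adjusted p of 0.457. Of 20 matrix and repair genes none was called at a median of 0.20, and of 16 clock genes none at 0.10. The complement and phagocyte receptor list gave 1 call among 13, the scavenger receptor Msr1 at 0.63 (SE 0.143), with a median of 0.26. Msr1 lost its call under 9 of 22 alternatives, and its probes tested alone had limma adjusted p-values of 0.0748 and 0.0535. Among 10 goblet and mucus genes the one called was Slc26a4, and the gel-forming mucin Muc5ac had a value of 0.09 (adjusted p = 0.978). The 7 aryl hydrocarbon receptor targets had a median of -0.03 and none was called.

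The 7 lower DEGs fell by less than the leading rises. Cirbp was at 9.17, 9.45, 8.96 and 9.11 in the exposed lungs and ran from 9.99 through 10.17 to 10.54 in the controls, below which all 4 lay. Its fall had an adjusted p of 0.00347 and the shared-array differences were -0.97, -0.56 and -1.23. Asgr1, a subunit of the asialoglycoprotein receptor, was at 6.40, 6.39, 6.67 and 6.61 against controls from 7.34 through 7.50 to 7.82, with a fall of -0.96 (SE 0.131, adjusted p = 0.000422). The others were the α-tubulin Tuba8 at -0.81 (SE 0.144), Cstad at -0.74 (SE 0.167), the protocadherin Pcdh17 at -0.71 (SE 0.152), the zinc finger gene Zc3h6 at -0.60 (SE 0.0922) and the sialyltransferase St8sia4 at -0.59 (SE 0.11). Asgr1 kept its call under all 22 alternatives that were run for it, while Cirbp had a value of -0.84 (adjusted p = 0.116) without CuO PEG 10 replicate 3 and Pcdh17 lost its call without any one of the 4 exposed samples. None belonged to a list described here, and in each of them the 4 exposed samples were below the 7 controls.

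The dose step from 2.5 to 10 μg asked which genes moved with more of the same material. Between CuO PEG 10 and CuO PEG 2.5 (n = 4 and 3), 8 genes were higher and none lower, 0.0349% of genes, and 1975, or 8.62%, had an unadjusted p under 0.05. The 3 largest rises were mitotic: Ncapg, a condensin subunit, at 1.40 (SE 0.257, adjusted p = 0.0431), Mki67 at 1.38 (SE 0.232, adjusted p = 0.0332) and Top2a at 1.34 (SE 0.232, adjusted p = 0.0332). Of the 24 mitotic genes 4 were called, and the list's median difference was 1.01. Saa3 differed by 3.38 (SE 0.872) and was not called, at an adjusted p of 0.17. No gene was called in this step without CuO PEG 10 replicate 3 or without CuO PEG 2.5 replicate 2.

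The step from 10 to 40 μg (n = 4 and 3) gave 9 genes higher and 11 lower at 40, 0.0393% and 0.048% of genes and 0.0873% together, and 2152 genes, or 9.39%, had an unadjusted p under 0.05. Spp1 was higher by 1.84 (SE 0.325), Mt2 by 1.68 (SE 0.301) and the immediate early gene Egr1 by 1.65 (SE 0.323), each at an adjusted p of 0.0467. The largest falls were those of the alveolar macrophage ribonucleases Ear1, Ear2 and Ear10, at -2.17 (SE 0.375), -2.15 (SE 0.405) and -1.90 (SE 0.327), at the same adjusted p. These paralogs are alike enough that their probes may share signal. Copper-binding Mt2 was thus called between 10 and 40 μg and had a value of 0.18 between PBS and 10 μg. The count of this step fell to 0 or 1 without any one of the 4 CuO PEG 10 samples or without CuO PEG 40 replicate 2 or 3, and rose to 38 without CuO PEG 40 replicate 1.

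Set against the same 7 PBS controls, which all of these comparisons share, CuO PEG 2.5 gave no DEG (1005 genes, or 4.39%, had an unadjusted p under 0.05), CuO PEG 40 gave 499 (2.18% of genes, 1.67% higher) and uncoated CuO 10 gave 816 (3.56% of genes, 2.46% higher). These counts differ in precision. The median SE was 0.097 for CuO PEG 10, 0.185 for CuO PEG 2.5, 0.162 for CuO PEG 40 and 0.203 for CuO 10. A change of a given size was thus less readily called in the other groups than in CuO PEG 10. The 91 higher DEGs of CuO PEG 10, which were chosen on that group, had median log2 fold changes of -0.28 at 2.5 μg, 0.77 at 10 μg and 1.47 at 40 μg, and of 1.81 after uncoated CuO at 10 μg. Saa3 had values of -0.61 at 2.5 μg, 2.77 at 10 μg, 4.90 at 40 μg and 6.15 after uncoated CuO, and Mki67 of -0.41, 0.97, 1.85 and 2.14. Hspa1a had values of -1.29, 1.97, 1.84 and 4.23, so the fitted value at 40 μg was not above that at 10 μg. For the whole chaperone list the medians were -0.34, 0.57, 0.16 and 1.05, and for the mitotic list they were -0.40, 0.66, 1.34 and 1.69.

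**Figure D5:**
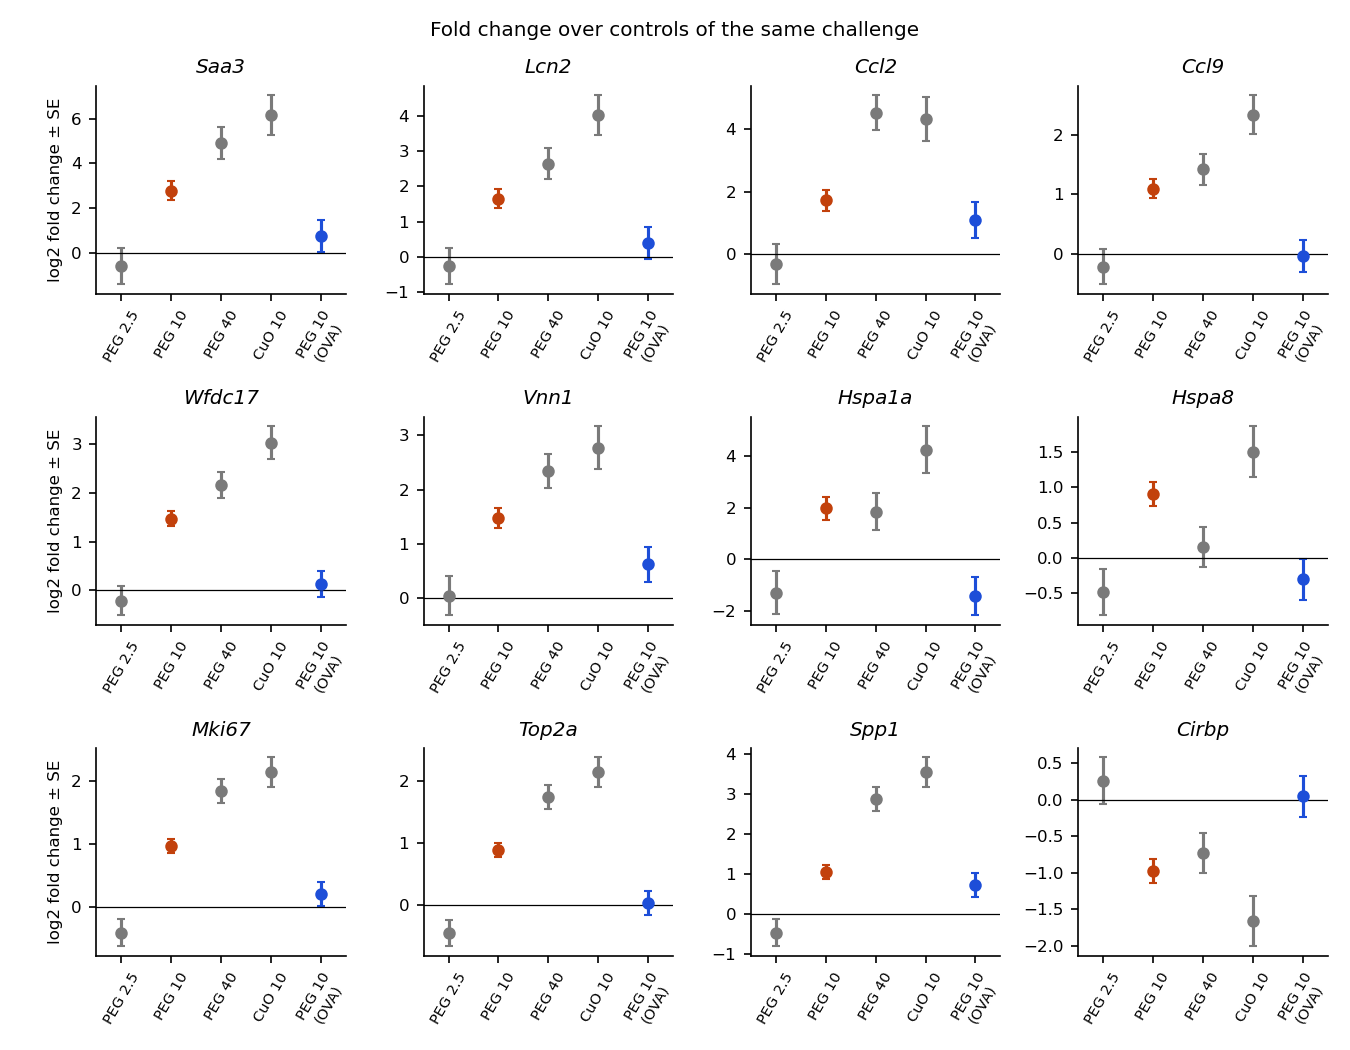
Panels give one gene each, with the log2 fold change over its controls and SE for CuO PEG at 2.5, 10 and 40 μg, for uncoated CuO at 10 μg, all against the same PBS controls, and for CuO PEG 10 against OVA controls in OVA-challenged mice. Saa3 runs from -0.61 through 2.77 to 4.90 with dose and stands at 6.15 for uncoated CuO.

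CuO PEG 10 was compared with uncoated CuO 10 (n = 4 and 3) at the same daily mass of 10 μg. The dose was matched on the mass of the whole material, so the copper given was not the same, and by the study's methods CuO PEG was supplied as an aqueous suspension and uncoated CuO as a powder. The coating, the copper dose and the form of supply cannot be told apart in this comparison. In the fit with dye, slide and position, 40 genes were higher and 204 lower after CuO PEG 10, 0.175% and 0.89% of genes and 1.06% together. Of the 91 higher DEGs of CuO PEG 10, 45 were called lower than with uncoated CuO and 1 higher, Nars2. The largest differences were those of Orm1 at -2.68 (SE 0.478, adjusted p = 0.00154), Orm2 at -2.25 (SE 0.471, adjusted p = 0.00554) and the B cell chemokine Cxcl13 at -2.18 (SE 0.553, adjusted p = 0.0247). In the other direction stood Igfbp3 at 1.07 (SE 0.230, adjusted p = 0.00632) and Igfbp6 at 1.00 (SE 0.187, adjusted p = 0.00239), which bind insulin-like growth factors, and the mitochondrial asparaginyl-tRNA synthetase Nars2 at 0.92 (SE 0.227, adjusted p = 0.0206). Nars2 stood high in CuO PEG 10 replicate 2 alone, at 8.87 with the next sample at 7.51. With dye and array it differed by 0.89 (SE 0.435, adjusted p = 0.574).

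By group, 9 of 19 acute phase genes and 18 of 24 mitotic genes were called lower after CuO PEG 10, against 0.89% of all genes. The median differences of these lists were -1.01 and -0.88. Saa1 differed by -1.92 (SE 0.531, adjusted p = 0.0413), Lcn2 by -1.42 (SE 0.368, adjusted p = 0.0273) and Mki67 by -1.01 (SE 0.208, adjusted p = 0.00512). Hmox1 differed by -1.67 (SE 0.417, adjusted p = 0.0215), Mt2 by -1.54 (SE 0.339, adjusted p = 0.00827) and Mt1 by -0.91 (SE 0.229, adjusted p = 0.0233). No chaperone and no monocyte and macrophage chemokine was called between the materials, at median differences of -0.21 and -1.08. Ccl7 differed by -1.47 (interval -2.59 to -0.34), Ccl12 by -1.15 (interval -1.97 to -0.34), Ccl3 by -1.01 (interval -1.74 to -0.28) and Ccl8 by -1.08 (interval -2.34 to 0.18), with adjusted p-values of 0.176, 0.133, 0.142 and 0.46. Hspa8 differed by -0.11 with a 95% interval from -0.53 to 0.30, Hsph1 by -0.21 (interval -0.68 to 0.27), Ccl9 by -0.38 (interval -0.93 to 0.17), Cirbp by 0.00 (interval -0.45 to 0.45) and Asgr1 by 0.03 (interval -0.37 to 0.43). Hspa1a at -1.18 (interval -2.29 to -0.06, adjusted p = 0.322), Ccl2 at -1.47 (interval -2.52 to -0.43, adjusted p = 0.135) and Saa3 at -1.71 (interval -3.06 to -0.36, adjusted p = 0.19) had wide intervals and did not pass the adjustment. The groups lay on different slides and shared no array. The size of these differences moved with the batch terms. With dye and array, the terms behind the values against PBS above, 24 of 22911 genes were called, 22 of them lower. Saa3 then differed by -3.38 (adjusted p = 0.173), Orm1 by -4.39 (adjusted p = 0.0252), Hmox1 by -3.15 (adjusted p = 0.000475) and Mki67 by -1.18 (adjusted p = 0.0656). In that fit 4 of 19 acute phase and 1 of 24 mitotic genes were called lower. The small differences moved as well. With dye and array Ccl9 differed by -1.24 (SE 0.356, adjusted p = 0.173) and Hspa8 by -0.59 (SE 0.393, adjusted p = 0.764). Cirbp differed by 0.69 (SE 0.38, adjusted p = 0.663). These values lay outside the intervals given above, while Hsph1 at -0.56 and Asgr1 at 0.14 lay within theirs. How alike the materials were in Ccl9, Hspa8 and Cirbp thus depended on the batch terms. With dye, slide and position Saa3 was at 2.58 after CuO PEG 10 and 4.29 after uncoated CuO against PBS. Dye and array gave 2.77 and 6.15. In the fit used here the count was 131, 77, 102 or 98 without CuO replicate 2, CuO replicate 3, CuO PEG replicate 2 or CuO PEG replicate 4, and 438 without CuO PEG replicate 1.

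Allergen challenge was the other condition in which the same dose was given. In OVA-challenged mice CuO PEG 10 (n = 3) against OVA controls (n = 8) gave no DEG with limma, and 1293 genes, or 5.64%, had an unadjusted p under 0.05. The median SE of that comparison was 0.165, against 0.097 after PBS challenge, so it was the less precise. The difference between the effects in OVA-challenged and PBS-challenged mice was called for no gene, and 1668 genes, or 7.28%, had an unadjusted p under 0.05. Of the 91 DEGs that were higher after PBS challenge, 66 lay above 0 in the OVA-challenged mice and their median there was 0.11. Wfdc17 had a log2 fold change of 1.47 after PBS and of 0.13 after OVA challenge, a difference of -1.34 (SE 0.306, adjusted p = 0.253). Mki67 had values of 0.97 and 0.21, a difference of -0.76 (SE 0.218, adjusted p = 0.345), and Hspa1a of 1.97 and -1.44, a difference of -3.40 (SE 0.839, adjusted p = 0.259). Spp1 was at 1.04 and 0.72, and its difference of -0.31 (SE 0.341, adjusted p = 0.932) was within its error. Without OVA control replicate 8, 11 genes were called in the test of the difference, and without OVA CuO PEG 10 replicate 3 there were 3.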

How the data were processed

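RNA of whole mouse lung, in pools of 2 mice, was labelled with Cy3 or Cy5 and hybridized by the authors in pairs to 8x60K two-colour arrays. They read the slides with Agilent Feature Extraction (12.0.2.2 per the file headers) and deposited the spot intensities of each array and a table of log2 values; their methods state log2 transformation, quantile normalization, removal of dye and array effects and averaging of probes per gene. The deposited median foreground intensity was used here without background subtraction. From it, log2 values were quantile-normalized over 89 samples after 3671 control spots had been left out of 62976, and probes (32994 of 56605 named a gene) were averaged to 22911 genes. limma 3.58.1 in R 4.3.3 was fitted over 26 groups with dye and array as fixed terms, or dye, slide and array position for CuO PEG 10 against CuO 10, whose slides differ. Gene coordinates and promoters came from RefSeq (GRCm38.p6).

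p-values measure the spread between pools that is left after the batch terms, shared over all 26 groups, and not the spread within the compared groups alone. The number of arrays limits the precision. The median SE of the main comparison was 0.097 on 17 residual and 6.11 prior degrees of freedom. The fit was run on simulated data with 200 changed genes among 22851, where it called 200 genes, 1 of them unchanged, and recovered 99% of changes of 1 and 100% of changes of 1.5 on the log2 scale. These data were drawn from the same model with independent residuals, so high recovery was built in. Smaller changes, such as the median of 0.77 of the higher DEGs, were not simulated. The run checks the computation and not how well the model describes the arrays. Genes were named as follows: the 12 largest rises and falls among DEGs whose groups did not overlap, up to 4 called and 3 uncalled members of each list, Tnf, Il33, Il13, Ccl2, Ccl7 and Ccl11, and the 3 largest rises and falls of the other comparisons. The comparison, its gene lists and these rules were chosen with earlier results of these data known. Alternatives covered background correction, normalization, dim probes, the deposited table, single probes, batch terms, a replicate block, the samples fitted and each sample left out; list counts under these alternatives were added after seeing the data.

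Samples with one replicate number deviated together with correlations of 0.20, 0.06, -0.20 and -0.13 over the 4 shared numbers, so the numbers were not taken to pair samples.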

Additional observations from a re-analysis of the deposited data

Results flagged for a closer look

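Among the 102 genes called or measured elsewhere by the study, 6 of 204 gene-by-group sets had one sample far from the rest, by the gap to its nearest neighbour as a share of the range, and about 1 in 20 is flagged by chance. In CuO PEG 10 replicate 4, Saa3 was at 12.91 with the next sample at 13.88 (share 0.87), and Lcn2 was at 13.58 with the next at 14.12 (share 0.855). Nars2 was at 8.87 in CuO PEG 10 replicate 2 with the next at 7.51 (share 0.955), and its log2 fold change was 0.44 (adjusted p = 0.158) without that sample. Clec4d was at 10.24 in CuO PEG 10 replicate 1 with the next at 9.52 (share 0.868). Among the controls PBS replicate 4 was the highest for Saa1, at 9.94 with the next at 9.12 (share 0.667), and for the histone gene H2ac22, at 13.49 with the next at 13.01 (share 0.57), a gene whose probes may share signal with the near-identical copies H2ac11 and H2ac23.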

How the results depend on the processing

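For CuO PEG 10 against PBS, where 98 genes were called, the count was 79 to 145 with normexp background correction, within-array loess, dim probes left out, the deposited table, dye, slide and position, only the slides that hold CuO PEG 10, only these groups, or only the 3 shared arrays. It was 154 probes when each probe was tested and 176 with the array as a random block. Leaving out single samples gave 31 to 99. The replicate block gave 980 calls, but the replicate numbers do not pair the samples. In the simulated data, which were drawn with dye and array effects, that fit called 951 genes, 759 of them unchanged.

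For CuO PEG 10 against CuO PEG 2.5 (8 calls), normexp gave 5, and loess, single probes and only the slides that hold CuO PEG 10 each gave 0. The random block gave 88, dye, slide and position 128 and the replicate block 100, and single samples left out gave 0 to 12. For CuO PEG 40 against CuO PEG 10 (20 calls), loess gave 35, the random block 342, dye, slide and position 311, the replicate block 375, those slides alone 0, and single samples left out 0 to 38. For CuO PEG 10 against CuO 10 (244 calls), the random block gave 1448, dye and array 24, the replicate block 1471, and single samples left out 77 to 438. For the difference between challenges (0 calls), the random block gave 91, dye, slide and position 104, the replicate block 153, and single samples left out 0 to 11. The cause of these shifts was not tested. Fits of only the groups compared were not run for the dose steps, which share no arrays.

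Over the named genes, 800 of the values with a sample left out kept their side of the threshold, 317 lost the call and 5 turned sign; under the other alternatives these numbers were 965, 148 and 7. The sign turned in Ccl11, whose main value was 0.03: -0.0337 with normexp, -0.73 with the random block, -0.092 with dye, slide and position, -1.59 with the replicate block, -0.019 on those slides alone, -0.91 with only these groups, and -0.037 to 0.145 with single samples left out. Il33 turned to -0.0578 with the replicate block. Genes without intensity above background have only bounds: Mab21l3, above background in 3 of 4 exposed samples and none of 7 controls, was at least 1.62-fold higher (limma adjusted p = 0.0142).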

Other observations

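Some higher DEGs of chromatin and DNA replication were picked after their values were seen and stand for no group. Asf1b, a histone chaperone, rose by 0.84 (SE 0.0988, adjusted p = 0.000102) and the linker histone H1f5 by 0.95 (SE 0.157, adjusted p = 0.00258). Rrm2, the small subunit of ribonucleotide reductase and a member of the mitotic list, rose by 0.83 (SE 0.131), the thymidine kinase Tk1 by 0.65 (SE 0.13) and the replication factor Mcm10 by 0.64 (SE 0.133). The 4 exposed samples of Asf1b were at 9.29, 8.87, 9.14 and 8.93 against controls from 7.95 through 8.07 to 8.64, without overlap, while Rrm2 at 9.33, 9.03, 9.29 and 8.83 overlapped controls from 8.01 through 8.19 to 8.95 at replicate 4.

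Some chaperones and their partners that are not in the chaperone list were picked in the same way. Stip1, which links the chaperones, was at 9.90, 10.01, 10.15 and 10.13 against controls from 9.10 through 9.18 to 9.33, did not overlap them, and rose by 0.89 (SE 0.153, adjusted p = 0.00379). Hspa4l, an Hsp110-type exchange factor, rose by 0.73 (SE 0.136), St13, an Hsp70-interacting protein, by 0.59 (SE 0.109), the collagen chaperone Serpinh1 by 0.63 (SE 0.146) and Sdf2l1, of the endoplasmic reticulum, by 0.75 (SE 0.146). Tested one by one, 154 probes passed the same thresholds, and 24 of them carry no gene name in the tables used here. All 23 DEGs that were read by several probes had the same sign on each probe, but not always a like size. The probes of Uhrf1, for example, had values of 0.99 and 0.22, the second at a limma adjusted p of 0.643.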
